A study of Homo sapiens with 12 samples.

Results

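The genes that build the mitotic spindle, attach chromosomes to it and split the dividing cell were followed as a set of 51 genes chosen by name. The choice was made with earlier results of these data known. Of the 51, 50 were measured among 11963 genes tested. A gene was measured when at least 1 probe set of the array mapped to its symbol and to no other, and its value was the mean of those probe sets. NUF2, a subunit of the outer kinetochore, had no such probe set and was not analysed here. The 50 genes were read by 77 probe sets, and 34 of them by a single probe set.

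The cells were RCC4, an established line from a human clear cell renal carcinoma, and expression was read on 12 Affymetrix arrays in 4 groups of 3 biological replicates. Every culture was transfected with 40 pmol of siRNA, and RNA was taken 72 h later. In siNT the siRNA was a non-targeting control. In siMESH1 it was 1 siRNA to MESH1, and in siATF4 a pool to ATF4. Both were given in siMESH1+siATF4, the double silencing; how the amount was divided in the double silencing was not given in the sources used here. MESH1 is a cytosolic NADPH phosphatase encoded by HDDC3, and ATF4 is a transcription factor of the integrated stress response. The comparisons asked how the division genes differed with each silencing, and whether the response to the MESH1 siRNA differed once the ATF4 siRNAs were given too. With 1 siRNA or pool per target, loss of the target cannot be told apart from off-target action of the siRNA. The study itself counted genes affected by ATF4 silencing alone as off-target and left them out when it defined ATF4-mediated genes.

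Mitosis is driven by cyclin-dependent kinase 1 (CDK1) with its A and B type cyclins. The spindle assembly checkpoint holds the anaphase-promoting complex, a ubiquitin ligase, in check until every kinetochore is attached to the spindle; its activator CDC20 then triggers the destruction of securin and cyclin B, separase cuts the cohesin rings, and the central spindle directs cytokinesis. Most genes of this machinery are transcribed late in the cell cycle, from promoters that carry CCAAT boxes and the cell cycle homology region (CHR), a short element bound by the MuvB complex together with B-MYB and FOXM1. In a culture of mixed phases fewer cells near mitosis and less RNA in each such cell cannot be told apart from RNA of the whole culture.

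Because their expression is tied to these elements, promoters were read from RefSeq on GRCh38.p14, as 300 bases from 250 before to 50 after the annotated start. The table held 53 promoters for 40 of the 50 genes. The CHR was searched as TTTGAA or TTCGAA and the CCAAT box as CCAAT, both on either strand, and these letters are capitals in the sequences that follow, which are given 5′ to 3′ along the strand of the gene. The promoters shown belong to SHCBP1 and DLGAP5, which fell furthest in siMESH1 and in the double silencing respectively, to CCNB2 and CDC20, to NDC80, and to TACC3, where neither motif was present. They lie on the minus strand at chr16:46621330-46621629 (SHCBP1) and chr14:55191536-55191835 (DLGAP5), and on the plus strand at chr15:59104896-59105195 (CCNB2), chr1:43358731-43359030 (CDC20), chr18:2571307-2571606 (NDC80) and chr4:1720381-1720680 (TACC3).
SHCBP1: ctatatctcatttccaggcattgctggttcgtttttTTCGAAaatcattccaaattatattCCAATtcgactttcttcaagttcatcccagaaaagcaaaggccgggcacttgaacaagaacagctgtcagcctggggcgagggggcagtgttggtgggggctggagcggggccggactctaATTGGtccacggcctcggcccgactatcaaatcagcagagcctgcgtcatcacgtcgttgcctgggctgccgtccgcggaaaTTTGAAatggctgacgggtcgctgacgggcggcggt
DLGAP5: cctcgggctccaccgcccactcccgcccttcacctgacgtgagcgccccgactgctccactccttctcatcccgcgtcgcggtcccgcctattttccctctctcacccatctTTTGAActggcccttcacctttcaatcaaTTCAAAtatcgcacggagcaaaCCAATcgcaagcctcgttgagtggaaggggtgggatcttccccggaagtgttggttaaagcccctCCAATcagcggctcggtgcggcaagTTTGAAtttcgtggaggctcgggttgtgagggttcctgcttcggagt
CCNB2: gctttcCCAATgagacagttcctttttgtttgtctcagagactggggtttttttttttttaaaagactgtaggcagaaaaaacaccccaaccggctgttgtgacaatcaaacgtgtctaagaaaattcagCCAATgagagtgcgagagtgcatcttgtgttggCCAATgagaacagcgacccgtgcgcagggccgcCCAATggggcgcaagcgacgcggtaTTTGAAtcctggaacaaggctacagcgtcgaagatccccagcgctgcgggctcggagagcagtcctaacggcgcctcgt
CDC20: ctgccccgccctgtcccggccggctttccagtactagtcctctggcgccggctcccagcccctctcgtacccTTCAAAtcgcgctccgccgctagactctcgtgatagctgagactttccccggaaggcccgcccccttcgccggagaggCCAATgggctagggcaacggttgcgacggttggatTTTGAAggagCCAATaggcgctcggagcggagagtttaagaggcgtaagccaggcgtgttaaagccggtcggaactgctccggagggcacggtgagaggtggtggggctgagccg
NDC80: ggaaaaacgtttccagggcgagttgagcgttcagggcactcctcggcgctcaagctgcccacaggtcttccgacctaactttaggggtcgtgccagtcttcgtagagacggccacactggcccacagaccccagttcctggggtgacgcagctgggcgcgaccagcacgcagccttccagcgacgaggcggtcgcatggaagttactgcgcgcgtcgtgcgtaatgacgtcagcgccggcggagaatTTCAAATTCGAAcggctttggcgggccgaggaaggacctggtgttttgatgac
TACC3: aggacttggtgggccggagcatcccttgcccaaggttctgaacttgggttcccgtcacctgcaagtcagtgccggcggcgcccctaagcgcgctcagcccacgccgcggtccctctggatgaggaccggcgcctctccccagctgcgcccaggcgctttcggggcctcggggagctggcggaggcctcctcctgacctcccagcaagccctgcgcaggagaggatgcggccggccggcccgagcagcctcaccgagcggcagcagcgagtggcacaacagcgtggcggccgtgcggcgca

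In CCNB2 the CHR began 29 bases before the start, with 4 CCAAT boxes further upstream, the nearest 54 bases from the start. In NDC80 an inverted TTTGAA and a TTCGAA stood side by side across the start, from 3 bases before it, and no CCAAT box was found. Of the 40 genes with a promoter, 30 (75.0%) held the CHR in at least 1 promoter, against 17.24% of the tested genes that had one. Counted by promoter, the share was 64.15% of the 53 against 13.17% of 14058. CCAAT occurred in 34 genes (85.0%, against 44.20%), and both motifs in 26 (65.0%, against 7.30%). The E2F core (TTCCCGC, alternatively TTCGCGC, alternatively TTGGCGC, on either strand, none of them holding the CHR letters) was present in 15 genes (37.5%, against 19.63%). Within 50 bases of the start, a window chosen after the positions were seen, the CHR was found in 26 genes (65.0%) against 5.30% of the genes tested. These matches are letters in a window and not binding sites, and no binding was measured.

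**Figure D1:**
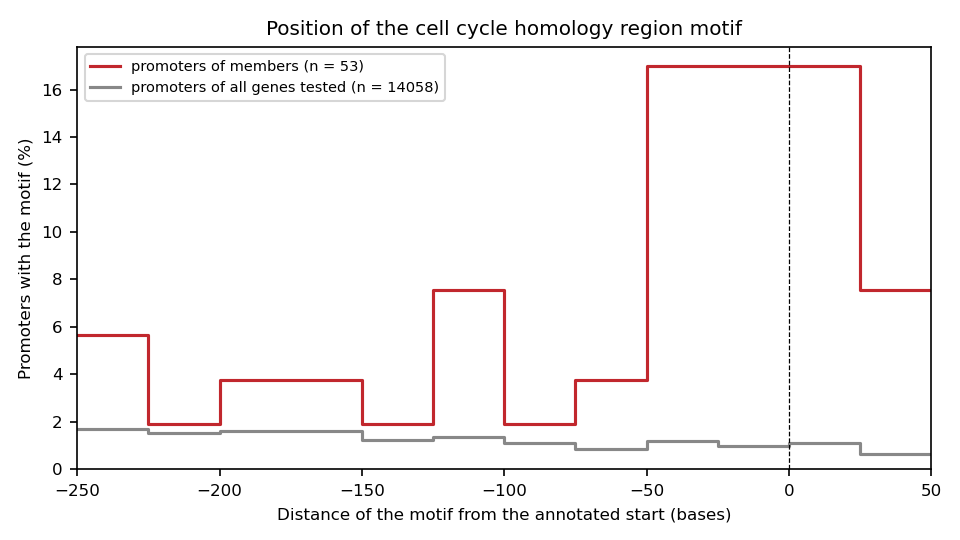
Position of the CHR motif relative to the annotated start, in bins of 25 bases. The lines give the percentage of promoters with the motif starting in each bin, for the 53 promoters of the division genes and the 14058 promoters of all genes tested. The 3 bins from 50 bases before to 25 bases after the start each reached 16.98% in the division genes.

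Deposited values are log2 signals minus the siNT mean of each probe set, so each value below is a difference on the log2 scale and no level is known. Tests are those of limma across all 12 arrays and 11963 genes; calls needed an adjusted p (Benjamini-Hochberg) under 0.05 and a change of at least 0.5 (1.41-fold). Errors are standard errors (SE) of that fit unless named, and n = 3 per group throughout. ATF4 read -2.29, -2.33 and -2.30 on the siATF4 arrays and -2.27, -2.46 and -2.23 on those of the double silencing, against -0.10, 0.0030 and 0.098 in siNT (siATF4 change -2.31, SE 0.07, adjusted p = 8.2e-10). In siMESH1 it read -0.015, -0.10 and 0.035, which overlapped siNT. HDDC3 had 0 named probe sets, so silencing of MESH1 itself was not analysed here. Without levels, the labelled cell type could not be checked against its markers. Of the renal tubule markers 0 of 9 and of the leukocyte and endothelial markers 0 of 12 were called in any comparison by limma, or by the methods' t-test in the comparisons with siNT; at an unadjusted p under 0.05, 2 and 1 differed between siMESH1 and siNT.

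Nearly all of these 50 division genes fell in every silenced group. In siMESH1, 48 of the 50 were called lower and 0 higher, where 5.37% of all genes tested were called lower and 2.82% higher, with a median change of -1.71 (3.27-fold) and a range from -2.88 to -0.076. The siATF4 arrays gave 47 lower and 0 higher (4.03% of all genes lower, 2.49% higher), a median of -1.30 (2.47-fold) and a range from -2.31 to -0.36. The double silencing gave 49 lower and 0 higher (5.25% of all genes lower, 4.4% higher), a median of -1.91 (3.76-fold) and a range from -3.33 to -0.48. The median change over all genes was 0.028, 0.020 and 0.013 in the same order. The 3 comparisons share the siNT arrays, so their counts are not independent of each other. The set was chosen with earlier results of these data known, so the shares over all genes are a background and not a test of the set. Of 55 further division genes, described below, 21, 21 and 22 were called lower in the same order.

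The groups were also separated array by array. All 50 genes had the 3 arrays of the silenced group below the 3 siNT arrays in each of the comparisons with siNT, where 20.8%, 18.6% and 20.2% of all genes were so separated in siMESH1, siATF4 and the double silencing. The mean over the 50 genes was 0.073, 0.017 and -0.090 on the siNT arrays, -1.59, -1.56 and -1.57 in siMESH1, -1.30, -1.41 and -1.33 in siATF4, and -1.84, -1.98 and -1.85 in the double silencing. Replicate 3 was the lowest siNT array for 38 genes, and replicate 2 was the lowest array of the double silencing for 37. Spread between replicates was small beside the changes, with a median SD over the genes of 0.095 in siNT, 0.054 in siMESH1, 0.087 in siATF4 and 0.096 in the double silencing. Housekeeping genes did not all hold their place: of 11 measured, TFRC (-1.17), HPRT1 (-0.66) and PGK1 (-0.53) were called lower in siMESH1. Centring the arrays on these genes raised the median over all genes to 0.36, 0.17 and 0.23 in the comparisons with siNT and left 42, 45 and 44 of the 50 division genes called lower. BUB1 and CCNF then lost the call in each of these comparisons, CDC25A and CDC25B in siMESH1 and the double silencing, CDC25C and ECT2 in siMESH1, and CENPA in the double silencing. The median of the division genes relative to all genes was -1.74, -1.32 and -1.92. Centring subtracts the same value from every gene of an array, so this difference could not change with the scaling. BUB3 turned to 0.25 in siMESH1 with housekeeping centring.

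**Figure D2:**
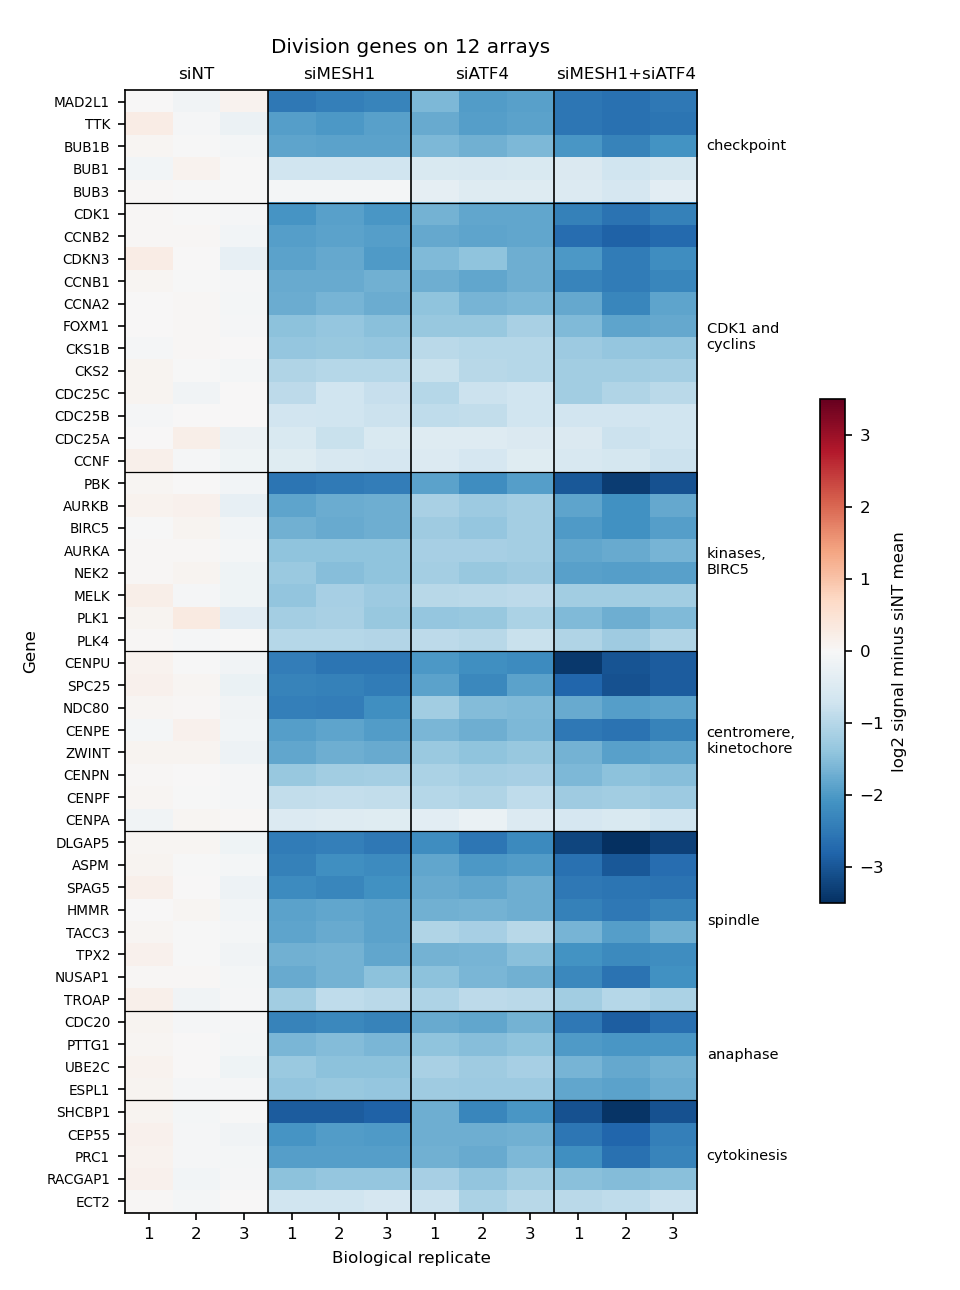
Values of the 50 division genes on the 12 arrays, grouped by role and ordered within a role by the siMESH1 change. Colour gives the log2 signal minus the siNT mean of the gene, columns are biological replicates 1 to 3 of each group, and white is no difference from siNT. The silenced groups are blue for nearly all genes, and BUB3 in siMESH1 stays near white at -0.076.

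Of the spindle assembly checkpoint, 4 of 5 genes were called lower in each comparison with siNT, with medians of -1.86 in siMESH1, -1.61 in siATF4 and -2.16 in the double silencing. MAD2L1, which forms the inhibitory complex that holds CDC20, read -2.49, -2.39 and -2.31 in siMESH1, -1.59, -1.95 and -1.91 in siATF4 and -2.54, -2.62 and -2.49 in the double silencing, against 0.0041, -0.11 and 0.11 in siNT. Its siMESH1 arrays all lay below its siATF4 arrays, and the fitted change in siMESH1 was -2.40 (SE 0.09, adjusted p = 1.3e-09). BUB1B (BUBR1), a further part of that inhibitory complex, read -1.84, -1.87 and -1.87 in siMESH1, -1.57, -1.68 and -1.58 in siATF4 and -2.05, -2.34 and -2.09 in the double silencing, around siNT values of 0.062, -0.0060 and -0.056. TTK (MPS1), the kinase that starts checkpoint signalling, changed by -1.95, -1.85 and -2.56 in the same order of groups.

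BUB3, the adaptor that brings BUB1 and BUBR1 to the kinetochore, was the exception. It read -0.081, -0.067 and -0.081 in siMESH1, -0.32, -0.46 and -0.45 in siATF4, -0.47, -0.60 and -0.37 in the double silencing and 0.030, -0.026 and -0.0037 in siNT. The siMESH1 change of -0.076 had an adjusted p of 0.39, and the change of -0.48 in the double silencing fell short of the fold minimum (adjusted p = 4.0e-05). Its siMESH1 value was 0.33 above siATF4 (adjusted p = 8.4e-04), also below the fold minimum. The 4 BUB3 probe sets did not move alike in siMESH1, from -0.51 to 0.33, while in siATF4 they ranged from -0.50 to -0.37. BUB1, the kinase that marks centromeric chromatin, had 5 probe sets, and their mean of -0.69 in siMESH1 joined values of -2.14 and -1.33 with others between -0.13 and 0.091. By the median of its probe sets BUB1 changed by -0.14 in siMESH1 and was called in none of the comparisons with siNT.

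CDK1, its cyclins and their regulators were lower in siMESH1 for 12 of 12 genes (median -1.39), in siATF4 for 11 of 12 (median -1.12) and in the double silencing for 12 of 12 (median -1.53). CDK1 itself read 0.036, -0.0030 and -0.033 in siNT, -2.05, -1.91 and -2.03 in siMESH1, -1.65, -1.83 and -1.81 in siATF4 and -2.35, -2.59 and -2.37 in the double silencing. Its fitted changes corresponded to 4.00-fold lower signal in siMESH1 (SE 0.07 on the log2 scale, adjusted p = 1.0e-09), 3.39-fold in siATF4 (-1.76) and 5.42-fold in the double silencing (-2.44). CCNB1, the cyclin of mitotic entry, read -1.78, -1.77 and -1.69 in siMESH1 and -1.70, -1.81 and -1.72 in siATF4, which overlapped, and -2.30, -2.43 and -2.28 in the double silencing (siNT 0.071, -0.021 and -0.050). CCNB2, whose promoter is shown above, went from 0.054, 0.052 and -0.11 in siNT to -1.94, -1.86 and -1.93 in siMESH1, to -1.80, -1.85 and -1.82 in siATF4 and to -2.66, -2.83 and -2.72 in the double silencing.

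CKS1B, a small CDK-binding subunit, read -0.051, 0.041 and 0.0096 in siNT, -1.36, -1.33 and -1.36 in siMESH1, -0.95, -0.99 and -1.0001 in siATF4 and -1.26, -1.35 and -1.37 in the double silencing. The double silencing overlapped siMESH1 for this gene. Its paralog CKS2 changed by -1.02, -0.91 and -1.20 in siMESH1, siATF4 and the double silencing. CDKN3, a phosphatase that acts on CDKs, changed by -1.87, -1.55 and -2.22, and CCNA2, the A type cyclin, by -1.70, -1.53 and -1.98 in siMESH1, siATF4 and the double silencing. FOXM1, itself a transcription factor of late cell cycle genes, changed by -1.42 (SE 0.08, adjusted p = 3.3e-08) in siMESH1, by -1.26 in siATF4 and by -1.73 in the double silencing.

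The CDC25 phosphatases, which remove inhibitory phosphates from CDKs, were among the genes with smaller mean values. For CDC25A and CDC25C these means joined unlike probe sets. In siMESH1 those of CDC25A read -1.19 and -0.050, and those of CDC25C -1.69, -0.16 and -0.56. CDC25B and CDC25C changed by -0.70 and -0.81 in siMESH1, and CDC25A, which acts also at entry into S phase, read -0.54, -0.79 and -0.53 there, -0.46, -0.44 and -0.50 in siATF4 and -0.50, -0.74 and -0.70 in the double silencing (siNT 0.0079, 0.21 and -0.22). CDC25A was not called in siATF4, where its change was -0.47 (adjusted p = 0.0040) and its probe sets read -0.90 and -0.033. CCNF, the substrate receptor of a ubiquitin ligase, stood at the fold minimum with -0.52 in siMESH1 and -0.50 in siATF4. Its arrays read -0.43, -0.56 and -0.58 in siMESH1, -0.48, -0.59 and -0.44 in siATF4, -0.56, -0.60 and -0.75 in the double silencing and 0.17, -0.036 and -0.14 in siNT. The CCNF calls were lost without siNT replicate 1 (-0.44 and -0.41), without siMESH1 replicate 3 (-0.496) and without siATF4 replicate 2 (-0.46).

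Mitotic kinases and BIRC5, the survivin subunit of the chromosomal passenger complex, were called lower for 8 of 8 genes in each comparison with siNT, with medians of -1.40, -1.23 and -1.82 in siMESH1, siATF4 and the double silencing. PBK, a kinase found in proliferating cells, read 0.066, 0.022 and -0.087 in siNT, -2.56, -2.48 and -2.42 in siMESH1, -1.86, -2.18 and -1.93 in siATF4 and -2.98, -3.32 and -3.06 in the double silencing. Its change of -3.12 in the double silencing (SE 0.10, adjusted p = 1.9e-10) was below both single silencings without overlap of arrays. AURKB, the kinase of the passenger complex, read 0.12, 0.15 and -0.27 in siNT, -1.83, -1.73 and -1.72 in siMESH1, -1.15, -1.27 and -1.20 in siATF4 and -1.86, -2.12 and -1.78 in the double silencing.

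PLK4, which controls centriole duplication, had the smallest siMESH1 change of this group as the mean of 3 unlike probe sets (-1.32, -1.47 and -0.21 in siMESH1). It read 0.041, -0.032 and -0.0093 in siNT, -0.99, -0.99 and -1.02 in siMESH1, -0.93, -0.97 and -0.78 in siATF4 and -1.05, -1.23 and -1.04 in the double silencing. AURKA, the kinase of spindle poles, changed by -1.40, -1.16 and -1.73, and PLK1, which acts at centrosomes, kinetochores and the midbody, by -1.21, -1.27 and -1.60. NEK2, a kinase of centrosome separation, changed by -1.40, -1.27 and -1.90, and BIRC5 by -1.72, -1.26 and -2.01. MELK, a further kinase of proliferating cells, changed by -1.27 in siMESH1 and by -1.21 in the double silencing.

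Of the centromere and kinetochore genes 7 of 8 were called lower in siMESH1 (median -1.84), 7 of 8 in siATF4 (median -1.38) and 8 of 8 in the double silencing (median -1.82). CENPU, of the inner kinetochore network, read 0.13, -0.011 and -0.12 in siNT, -2.41, -2.57 and -2.55 in siMESH1, -1.996, -2.13 and -2.21 in siATF4 and -3.37, -3.01 and -2.90 in the double silencing. The microtubule-binding NDC80 complex was represented by NDC80 and SPC25, and ZWINT links the outer kinetochore to the checkpoint. NDC80 read -2.38, -2.43 and -2.15 in siMESH1, -1.21, -1.51 and -1.56 in siATF4 and -1.75, -1.92 and -1.86 in the double silencing (siNT 0.068, 0.048 and -0.12). Here the arrays of the double silencing lay between the single silencings and overlapped neither. SPC25 did not share this order, with changes of -2.39, -2.01 and -2.92.

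The motor CENPE changed by -1.91 in siMESH1, -1.63 in siATF4 and -2.47 in the double silencing. The large kinetochore protein CENPF changed by -0.85, -0.98 and -1.25 in the same order, CENPN by -1.25, -1.15 and -1.50, and ZWINT by -1.77, -1.34 and -1.80. CENPA, the histone H3 variant of centromeric chromatin, read -0.47, -0.45 and -0.42 in siMESH1, -0.37, -0.24 and -0.48 in siATF4, -0.59, -0.54 and -0.70 in the double silencing and -0.11, 0.064 and 0.048 in siNT. It was called only in the double silencing (-0.61, adjusted p = 1.8e-05). Leaving out single arrays moved its siMESH1 change between -0.502 and -0.41, across the fold minimum. The CENPA value came from a single probe set. A further probe set, shared by CENPA and a second symbol and left out of the gene value, changed by -2.19, -2.004 and -2.78 in siMESH1, siATF4 and the double silencing.

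**Figure D3:**
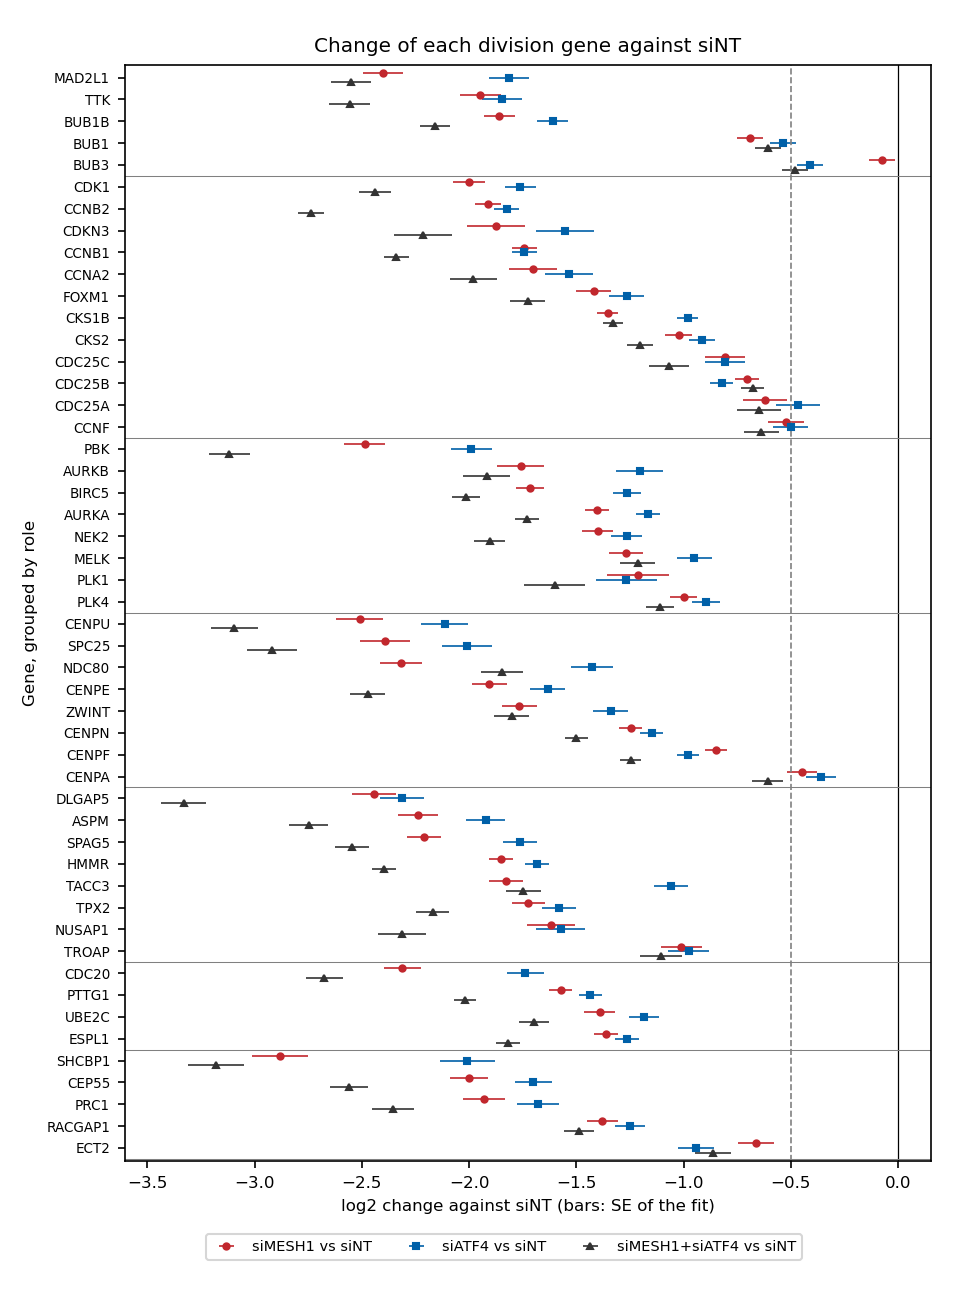
Fitted log2 change of each division gene against siNT in siMESH1, siATF4 and the double silencing, with bars for the SE of the fit and a dashed line at the fold minimum of -0.5. Grey lines separate roles. NDC80 lies lower in siMESH1, at -2.32, than in the double silencing, at -1.85. DLGAP5 has the lowest point of the plot, -3.33 in the double silencing.

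Spindle assembly genes were called lower for 8 of 8 in each comparison with siNT, with medians of -1.84 in siMESH1, -1.63 in siATF4 and -2.36 in the double silencing. DLGAP5, a microtubule-binding protein that stabilises kinetochore fibres, read 0.074, 0.081 and -0.16 in siNT, -2.44, -2.40 and -2.49 in siMESH1, -2.18, -2.53 and -2.24 in siATF4 and -3.21, -3.52 and -3.27 in the double silencing. It overlapped between the single silencings and was 10.07-fold below siNT in the double silencing (-3.33, SE 0.10, adjusted p = 1.9e-10). HMMR, a spindle pole protein, read 0.013, 0.069 and -0.082 in siNT, -1.86, -1.81 and -1.88 in siMESH1, -1.69, -1.66 and -1.70 in siATF4 and -2.36, -2.49 and -2.34 in the double silencing. SPAG5 (astrin), which acts at spindle poles and kinetochores, read 0.17, 0.013 and -0.19 in siNT, -2.21, -2.29 and -2.13 in siMESH1, -1.75, -1.82 and -1.72 in siATF4 and -2.50, -2.55 and -2.58 in the double silencing.

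TACC3, which cross-links microtubules of the kinetochore fibre, differed from these. It read 0.077, -0.0073 and -0.070 in siNT, -1.85, -1.77 and -1.87 in siMESH1, -1.05, -1.16 and -0.97 in siATF4 and -1.62, -1.94 and -1.68 in the double silencing. The double silencing overlapped siMESH1, and siATF4 stood apart from both. TROAP, a microtubule-associated protein of the spindle, had the smallest siMESH1 change of the group, with -1.20, -0.89 and -0.93 in siMESH1, -1.07, -0.90 and -0.95 in siATF4 and -1.22, -0.997 and -1.10 in the double silencing (siNT 0.17, -0.13 and -0.035), and its silenced groups overlapped one another. ASPM, a spindle pole protein, changed by -2.24, -1.92 and -2.75, TPX2, which activates AURKA on the spindle, by -1.72, -1.58 and -2.17, and NUSAP1, a microtubule bundling protein, by -1.62, -1.57 and -2.31.

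The regulators of anaphase were called lower for 4 of 4 genes in each comparison with siNT (medians -1.48, -1.35 and -1.92). CDC20 read 0.086, -0.034 and -0.052 in siNT, -2.35, -2.25 and -2.33 in siMESH1, -1.75, -1.81 and -1.64 in siATF4 and -2.50, -2.89 and -2.64 in the double silencing. PTTG1, which encodes securin, read 0.056, 0.022 and -0.078 in siNT, -1.60, -1.52 and -1.61 in siMESH1, -1.40, -1.49 and -1.42 in siATF4 and -1.98, -2.05 and -2.03 in the double silencing. ESPL1, which encodes separase, read 0.10, -0.049 and -0.054 in siNT, -1.39, -1.33 and -1.37 in siMESH1, -1.25, -1.26 and -1.28 in siATF4 and -1.83, -1.88 and -1.75 in the double silencing. The double silencing was the lowest group for these 3 genes, without overlap, and UBE2C, the ubiquitin-conjugating enzyme of the complex, changed by -1.39, -1.18 and -1.70.

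The subunits of the anaphase-promoting complex itself are present through the cell cycle. Of 9 measured genes of a list that holds the core subunits and the interphase activator FZR1, limma called 0 in siMESH1, 1 lower in siATF4 (CDC27, -0.60, adjusted p = 4.4e-06) and 0 in the double silencing, with medians of -0.0095, -0.0024 and 0.051. At an unadjusted p under 0.05 the list held 2 lower and 2 higher genes in siMESH1 and 3 lower and 3 higher in the double silencing, and the methods' t-test called 0 in both. Between the single silencings limma called 1 of the 9 lower in siMESH1 than in siATF4 and 1 higher (4.75% of all genes lower, 3.91% higher). The CHR letters were present in promoters of 2 of these 9 genes, against 17.24% of the tested genes that had a promoter.

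Cytokinesis genes were called lower for 5 of 5 in each comparison with siNT, with medians of -1.93 in siMESH1, -1.68 in siATF4 and -2.35 in the double silencing. SHCBP1, a midbody protein, had the largest siMESH1 change of the 50 genes (-2.88, 7.37-fold, SE 0.13, adjusted p = 4.1e-09). It read 0.085, -0.074 and -0.011 in siNT, -2.90, -2.90 and -2.84 in siMESH1, -1.70, -2.28 and -2.05 in siATF4 and -3.05, -3.44 and -3.06 in the double silencing. ECT2, the exchange factor that activates RhoA at the cleavage furrow, had the smallest siMESH1 change of this group and read -0.69, -0.71 and -0.59 in siMESH1, -0.75, -1.11 and -0.96 in siATF4 and -0.94, -0.89 and -0.76 in the double silencing (siNT 0.046, -0.071 and 0.025). Its siATF4 arrays lay below its siMESH1 arrays. RACGAP1, the partner of ECT2 on the central spindle, changed by -1.38, -1.25 and -1.49, PRC1, which bundles antiparallel microtubules there, by -1.93, -1.68 and -2.35, and CEP55, which recruits the abscission machinery, by -2.002, -1.70 and -2.56.

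The single silencings were compared directly. On the deposited scale 45 of 50 genes were lower in siMESH1 than in siATF4, with a median difference of -0.16. Centring the arrays on housekeeping genes, of which TFRC was 1.20 lower in siMESH1 than in siATF4, raised the median over all genes from 0.0026 to 0.19, and 23 of the 50 genes were then lower and 27 higher. Relative to the median over all genes, the median of the division genes was -0.16. Centring shifts every gene of an array alike, so this difference could not change with the scaling. Arrays of the single silencings did not overlap for 38 genes, 35 of them lower in siMESH1 (23.5% of all genes) and 3 higher (22.1%). Limma called 6 genes lower and 0 higher, where 4.75% of all genes were called lower and 3.91% higher, and 26 lower and 4 higher genes had an unadjusted p under 0.05. The 6 were NDC80 (-0.89, SE 0.10, adjusted p = 1.4e-05), SHCBP1 (-0.87), TACC3 (-0.77), MAD2L1 (-0.59), CDC20 (-0.57) and AURKB (-0.56). NDC80, SHCBP1 and TACC3 kept the call under housekeeping centring (-0.71, -0.69 and -0.59), MAD2L1, CDC20 and AURKB lost it (-0.40, -0.39 and -0.37), and BUB3 was then called higher (0.52). MAD2L1 also lost it without siATF4 replicate 1 (-0.47).

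Adding the second siRNA lowered part of the set further. Against siATF4, the double silencing had 29 genes called lower and 0 higher (1.28% of all genes lower, 0.351% higher), with a median of -0.57, and at an unadjusted p under 0.05 there were 43 lower and 1 higher. The arrays did not overlap for 43 genes below siATF4 (13.8% of all genes) and for 1 above (15.4%). The largest of these differences were those of SHCBP1 (-1.17, SE 0.13, adjusted p = 1.0e-04), PBK (-1.13), DLGAP5 (-1.02) and CENPU (-0.98). By group, 7 of 8 spindle assembly genes, 4 of 4 anaphase regulators, 5 of 8 kinases and BIRC5, 3 of 5 checkpoint genes, 3 of 5 cytokinesis genes, 3 of 8 kinetochore genes and 4 of 12 of the CDK1 group were called. UBE2C lost its call without siATF4 replicate 1 (-0.49), and UBE2C (-0.47) and BUB1B (-0.46) lost theirs without replicate 2 of the double silencing. The count was 25 with housekeeping centring, without AURKA, BUB1B, ESPL1 and UBE2C, and 16 by the methods' t-test after Benjamini-Hochberg adjustment.

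Against siMESH1, the double silencing had 13 genes called lower and 0 higher (2.68% of all genes lower, 3.42% higher), with a median of -0.32, and at an unadjusted p under 0.05 there were 36 lower and 1 higher. The 13 were DLGAP5 (-0.89, SE 0.10, adjusted p = 3.2e-05), CCNB2 (-0.83, SE 0.06, adjusted p = 6.3e-07), NUSAP1 (-0.70), PBK (-0.63), TTK (-0.61), CCNB1 (-0.60), CENPU (-0.58), CENPE (-0.57), CEP55 (-0.56), HMMR (-0.55), SPC25 (-0.53), ASPM (-0.51) and NEK2 (-0.50). Arrays did not overlap for 39 genes below siMESH1 (20.7% of all genes) and for 2 above it (22% of all genes). NDC80 was higher in the double silencing than in siMESH1, by 0.47 (SE 0.10, adjusted p = 0.0029), below the fold minimum. Single arrays decided some of these calls. Without replicate 2 of the double silencing 8 genes were called lower and 1 higher, as ASPM (-0.40), CEP55 (-0.46), HMMR (-0.498), NEK2 (-0.497) and SPC25 (-0.46) fell under the fold minimum while NDC80 passed it (0.51). CENPU lost its call without replicate 1 of the double silencing (-0.45), NEK2 without siMESH1 replicate 1 (-0.45) and ASPM without siMESH1 replicate 2 (-0.47) or 3 (-0.49), and without the latter NDC80 was called higher (0.56). Centring on housekeeping genes gave 20 lower genes in place of 13.

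The changes in the double silencing were smaller than the sum of the single changes on the log2 scale for all 50 genes. The interaction subtracts the effect of the MESH1 siRNA in control cells from its effect in cells that also received the ATF4 siRNAs. It was above 0 for each of them, with a median of 1.03 against -0.021 over all genes. With housekeeping centring it was above 0 for 48. It was called for 46 of 50 genes, all of them positive (3.46% of all genes positive, 0.853% negative). The 4 that were not called were BUB3 (0.0082, adjusted p = 0.97), CENPA (0.20), CCNF (0.39) and CDC25A (0.44). By single probe sets the BUB3 interaction differed in sign (-0.31, 0.34, -0.055 and 0.062), and none of them was called. The CCNF probe sets gave 0.60 (limma adjusted p = 6.1e-04), which was called, and 0.17, which was not. The CDC25A mean joined probe sets at -1.25 and -0.048 in the double silencing. A probe set shared by CENPA and a second symbol, in no gene value, had an interaction of 1.41 and was called. For these 3 genes the missing call thus depends on the probe sets used. The double change was 65.13% of the summed single changes at the median, from 44.36% in CDC25B to 98.31% in BUB3. It lay below both single changes for 43 genes, and for BUB1, CDC25B, CKS1B, ECT2, MELK, NDC80 and TACC3 it did not. The summed and the double change use the same siNT arrays.

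**Figure D4:**
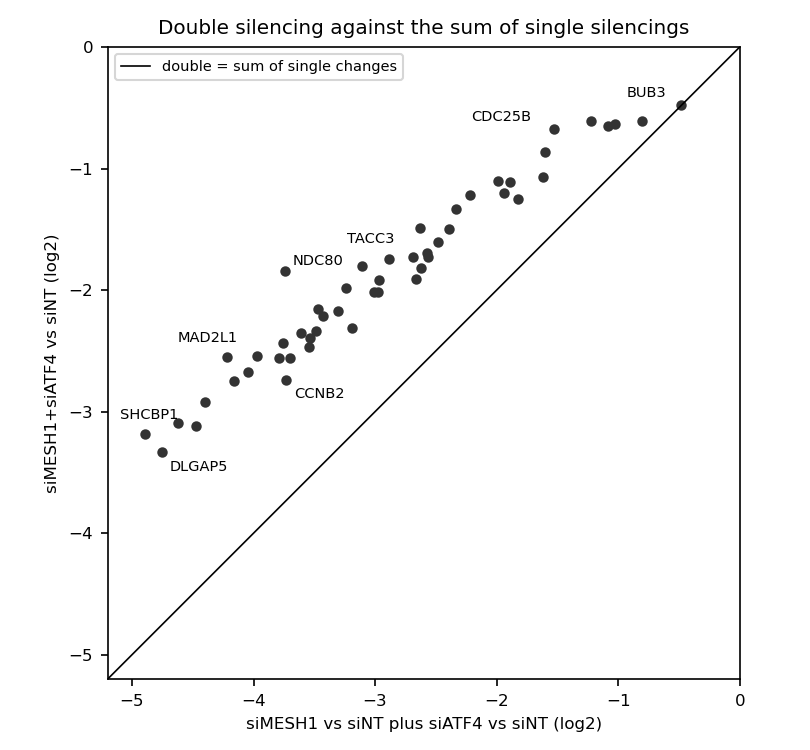
Double silencing against the sum of the single silencings, 1 point per division gene, on the log2 scale against siNT. The line marks a double change equal to the sum. The 50 points lie above the line, BUB3 next to it at 98.31% of the sum and CDC25B at 44.36%, and NDC80 stands above the other genes of a like sum.

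NDC80 had the largest interaction (1.90, SE 0.14, adjusted p = 5.1e-06), followed by SHCBP1 (1.71), MAD2L1 (1.66), CENPU (1.53) and SPC25 (1.48). The smallest adjusted p-values were shared by genes of several roles, among them CKS1B (1.01), HMMR (1.14), CCNB1 (1.15) and PTTG1 (0.99). Housekeeping centring lowered the median interaction of the 50 genes to 0.77 and that of all genes to -0.28, and 41 genes were then called positive. Leaving out any one array left 45 to 47 called. Levels are not kept in the deposited values, so it was not known how near a gene lay to the lower end of the range of the array.

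Single probe sets were also tested, since 16 of the genes were read by several. Of the 77 probe sets, 65 were called lower in siMESH1, 64 in siATF4 and 67 in the double silencing, where 5.43%, 4.19% and 5.47% of 19064 probe sets were. Of them 64 were lower in each of the comparisons with siNT, 3 in some and 10 in none. Probe sets of one gene differed most for BUB1, by 2.23 in siMESH1, and by over 1 for BIRC5, CDC25C, NEK2, PLK4, CENPF and CDC25A. The NEK2 probe sets read -2.06 and -0.74 in siMESH1 and -3.04 and -0.77 in the double silencing. For such genes the mean change depends on which probe sets are averaged, and 32 genes were left when probe sets whose suffix marks them as shared by transcripts or possibly cross-hybridising were dropped. CENPF and CDC25C then lost their calls in each comparison with siNT (-0.18 and -0.16 in siMESH1), and BUB1 lost its calls in siATF4 (-0.38) and in the double silencing (-0.47). CDC25A was then called in siATF4 (-0.90), and AURKA was no longer called between the double silencing and siATF4 (-0.37).

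**Figure D5:**
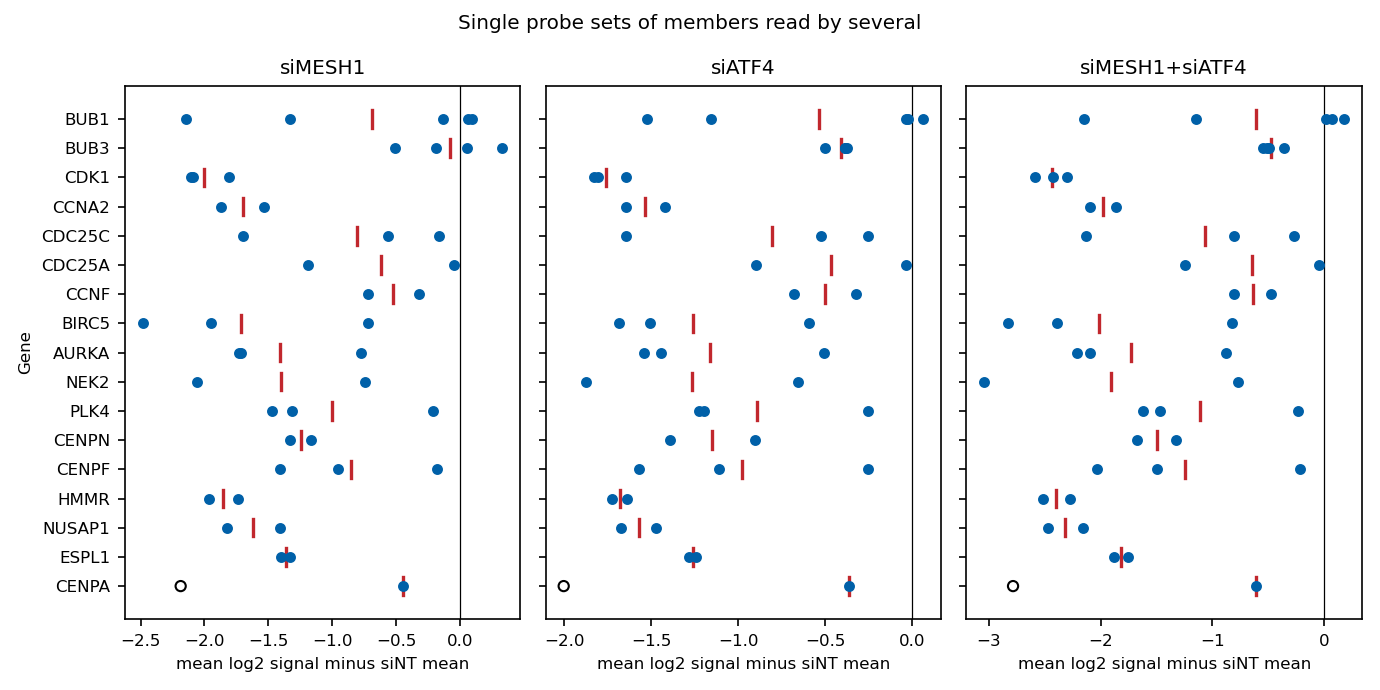
Mean log2 signal minus the siNT mean of single probe sets, for the 16 division genes with several probe sets and for CENPA, in siMESH1, siATF4 and the double silencing. Blue points are probe sets, red bars their mean, and the open circle is a probe set with CENPA and a second symbol that entered no gene mean. BUB1 in siMESH1 spans -2.14 to 0.091.

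Further genes of the division machinery, taken from lists of 77 genes of which 55 were measured, were read on the same arrays. Of these 55, 21 were called lower in siMESH1, 21 in siATF4 and 22 in the double silencing, and 0 higher, with medians of -0.21, -0.29 and -0.31. Over all genes tested 5.37%, 4.03% and 5.25% were called lower and 2.82%, 2.49% and 4.4% higher. Among 20 more centromere and kinetochore genes 8, 8 and 9 were lower. CENPM, of the inner kinetochore network, changed by -1.40 (SE 0.07, adjusted p = 8.4e-09), -1.38 and -1.66, and DSN1 of the MIS12 complex by -1.20, -1.05 and -1.37. KNTC1, which recruits dynein to kinetochores, changed by -1.18, -0.96 and -1.09, while its partner ZW10 changed by -0.89 in siMESH1 and by -0.29 in siATF4, a difference of -0.60 (adjusted p = 4.7e-06). CENPQ ran the other way, with -0.81 in siMESH1, -1.93 in siATF4 and -2.06 in the double silencing, and was 1.13 higher in siMESH1 than in siATF4 (SE 0.07, adjusted p = 1.3e-07).

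Of 23 other division genes 12, 11 and 12 were lower. CDCA8 (borealin), a chromosomal passenger, changed by -1.68, -1.43 and -2.13, OIP5, which helps load CENPA, by -1.67, -1.65 and -2.22, and TRIP13, the ATPase that disassembles the checkpoint complex, by -1.26, -1.76 and -2.27. KPNA2, an importin that binds TPX2, changed by -1.18, -1.03 and -1.22. WEE1, the kinase that restrains CDK1, was lower in siMESH1 by -0.96 (SE 0.05, adjusted p = 2.0e-08) and read -0.090 in siATF4, and it was 0.65 higher in the double silencing than in siMESH1 (adjusted p = 1.4e-06). CKAP2 changed by -0.72 in siMESH1 and by -1.55 in siATF4. STMN1 read -0.24, -0.086 and -0.22 in siMESH1 and -0.89, -1.12 and -0.95 in siATF4. Between the single silencings 1 of these 23 genes was called lower in siMESH1 and 2 higher (4.75% of all genes lower, 3.91% higher). MYBL2, which encodes B-MYB, changed by -1.45, -1.39 and -1.68, and the other measured parts of the MuvB complex, LIN37 and RBBP4, were not called in the comparisons with siNT. By promoter, the median siMESH1 change was -1.81 for the 30 of the 50 genes with the CHR letters and -1.72 for the 10 without.

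RNA quality measures moved with the groups in part. The difference between the 3′ and 5′ probe sets of ACTB was -0.11 in siMESH1 (SD 0.15), -0.29 in siATF4 (SD 0.08) and -0.30 in the double silencing (SD 0.13) relative to siNT (SD 0.06). For GAPDH it was 0.078, -0.090 and -0.022, and the hybridisation spike-ins read -0.033, 0.25 and 0.065. The part of these measures in the changes of the division genes was not tested.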

How the data were processed

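Total RNA of 12 RCC4 cultures was hybridised to 1-colour Affymetrix arrays. The authors normalised the arrays by RMA in Affymetrix Expression Console, per the labels, with versions not given in the sources used here, and deposited log2 values from which the siNT mean had been subtracted. The siNT mean of every probe set was within 1.20e-04 of 0, so signal levels and background were not known, no filter on dim probe sets could be set, and the number of arrays limits the precision.

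Of 22277 probe sets, 19064 with a single gene symbol were used (19052 matched by Entrez identifier). Those with several symbols (1043) or none (2108), and 62 control probe sets, were left out of the gene values. Probe sets were averaged into 11963 genes. Group means were fitted to all 12 arrays with limma 3.58.1 in R 4.3.3 (8 residual degrees of freedom), with Benjamini-Hochberg adjustment over all genes, after the script had been tested on simulated data. Promoters were searched with Python 3.11.15, pandas 2.3.3 and numpy 2.4.6, and figures were drawn with matplotlib 3.10.9.

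The division genes, the other gene lists and the tests were chosen with earlier results of these data known. Values on each array were given for ATF4, for the division genes with the largest and smallest siMESH1 change of each role, for those not called in a comparison with siNT, and for up to 10 with the smallest interaction p or called between silenced groups. Of the other lists, called genes were named, up to 4 with the smallest adjusted p, and some that ran against their list. Not every gene of these lists called between silenced groups was named. The alternatives were centring on the array median or on housekeeping genes, the median of probe sets, leaving out suffix-marked probe sets, fitting only the groups compared, a replicate block, robust moderation, the t-test of the study's methods, no fold minimum, leaving out each array, and, added after the data were seen, a fit of each probe set. Replicates were labelled biological, and whether they came from separate days was not stated.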

Additional observations from a re-analysis of the deposited data

Results flagged for a closer look

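The interaction of the silencings was the difference between 2 effects of the MESH1 siRNA, with and without the ATF4 siRNAs. It passed the test in 46 of the 50 division genes. The 10 with the smallest adjusted p were CKS1B (1.01 on the log2 scale), HMMR (1.14), CCNB1 (1.15), NDC80 (1.90), PTTG1 (0.99), BUB1B (1.31), SPAG5 (1.43), CDK1 (1.32), MAD2L1 (1.66) and CCNB2 (1.00). Each value is positive, which means that the MESH1 siRNA lowered the gene less on top of the ATF4 siRNAs than on top of the control.

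A probe set that maps to CENPA and to a second symbol, SLC35F6, entered no gene value and still differed from siNT. It changed by -2.19 in siMESH1, by -2.004 in siATF4 and by -2.78 in the double silencing, while the probe set used for CENPA gave -0.45, -0.36 and -0.61. Its arrays read 0.046, 0.042 and -0.087 in siNT, -2.28, -2.11 and -2.16 in siMESH1, -2.03, -1.96 and -2.02 in siATF4 and -2.73, -2.90 and -2.72 in the double silencing. The interaction of this probe set was 1.41 (SE 0.10). Which of its symbols the signal belongs to was not tested.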

How the results depend on the processing

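The values of single genes recomputed under each alternative were the changes of the 50 division genes against siNT, the 10 interactions with the smallest p, and the differences between silenced groups for NDC80 and the genes called there. Of these, 4435 kept their direction and their side of the threshold, 68 fell below it, 14 passed it and 1 changed sign. The sign change was BUB3 in siMESH1 against siNT (0.25 with housekeeping centring). The replicate block, robust moderation, fits of only the groups compared, the t-tests and no fold minimum leave the fitted change as it is. Leaving out an array of a group outside a comparison does so too, so in these cases no sign could change. Among all 50 genes housekeeping centring changed further signs: the number lower in siMESH1 than in siATF4 went from 45 to 23, the number lower in the double silencing from 44 to 49 against siMESH1 and from 48 to 46 against siATF4, and the number with an interaction above 0 from 50 to 48. With housekeeping centring the genes called among all tested were 2817 in siMESH1 against siNT (291 lower, 2526 higher), 1877 in the double silencing against siNT (372 lower, 1505 higher) and 1457 in the interaction (1261 negative, 196 positive), and 20 division genes were lower in the double silencing than in siMESH1. The other splits of lower and higher genes under that centring were 324 and 681 in siATF4 against siNT, 549 and 262 in the double silencing against siMESH1, 113 and 91 against siATF4, and 302 and 1026 between the single silencings. Without the suffix-marked probe sets 32 division genes remained measured. Of them 30, 29 and 29 were called lower in siMESH1, siATF4 and the double silencing against siNT. In the double silencing against siATF4 19 were lower, and 28 were positive in the interaction. Of the 8369 genes then tested, 463, 328, 432 and 121 were called lower in the same order of comparisons, and 289 positive in the interaction. The division gene counts fell both because fewer genes could be tested and because genes still measured (CENPF, CDC25C, BUB1 and AURKA) lost calls. The methods' t-test after Benjamini-Hochberg adjustment called 16 division genes and 122 of all genes in the double silencing against siATF4. With no fold minimum the calls over all genes were 4019, 3421 and 4254 against siNT, 3348 and 1403 for the double silencing against siMESH1 and siATF4, 4004 between the single silencings and 1424 in the interaction, with 30 and 24 division genes called in the double silencing against siMESH1 and between the single silencings. Leaving out each array in turn gave 47 to 48, 46 to 48 and 49 to 50 division genes against siNT, 9 to 13 and 27 to 32 for the double silencing against siMESH1 and siATF4, 5 to 8 between the single silencings and 45 to 47 in the interaction, and over all genes 979 to 1023, 778 to 815, 1134 to 1178, 730 to 759, 189 to 215, 1036 to 1080 and 478 to 562 in that order. Same-numbered arrays of different groups did not deviate together (correlations -0.19 to 0.095, and 2 of 12 arrays correlated best with their own number), so the numbers were not read as pairs. With the replicate block the division gene counts were 48, 47, 49, 13, 29, 6 and 46, the same as without it. The interaction was not run with the methods' t-test or in fits of only the groups compared, and the planned search of protein motifs was not run, as no protein sequences were given. The causes of these differences were not tested.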
